A study of Mus musculus with 36 samples.

Results

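The 8 genes described here form the activin and inhibin family as measured in mouse liver, namely the β subunit genes Inhba, Inhbb, Inhbc and Inhbe, the antagonist genes Fst and Fstl3, and the receptor genes Acvr2a and Acvr1c. They were the non-control probes whose gene name on the array equals one of these symbols, which gave 10 probes of 56605, and 8 genes of 37325. Of these genes, 7 passed the filter on dim probes and entered the test beside 24251 tested genes in all. The probe of Acvr1c was not well above background on any array. The family was chosen with earlier results in view: Inhbe had been named among the lowest genes in fasted AAKO liver against fasted CTRL liver. For that contrast, and for both interaction terms that contain it, the members' values are therefore given as a description without a test.

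RNA came from 36 liver samples of male C57Bl/6J mice in 6 groups of 6, each on its own 1-colour Agilent array. AAKO mice lacked ATGL, the adipose triglyceride lipase that starts the release of fatty acids from stored fat, in white adipose tissue, and CTRL mice were their controls; the labels name neither the Cre driver nor the genotype of the controls. Within each genotype, the groups were fed mice, mice without food for 24 h, and fed mice gavaged at Zeitgeber time (ZT) 10 with CL316243 at 3 mg/kg in 0.5% carboxymethyl cellulose. CL316243 activates the β3-adrenergic receptor, which in mice is found mainly on adipocytes. No gavage is stated for the other groups. Drug, gavage and vehicle thus cannot be told apart where a CL316243 group is set against another condition, and an effect named after CL316243 below means all of these together. All mice ate standard chow and were killed at ZT16. The labels place the fed groups in experiment 2 and the fasted and CL316243 groups in experiment 1, so a condition and an experiment cannot be told apart wherever a group is set against the fed group. Each group was split over both wash batches named in the labels, with 3 arrays in each batch except for AAKO CL316243, which had 4 in batch 1 and 2 in batch 2.

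Activins are dimers of inhibin β subunits that belong to the TGF-β family. Inhba and Inhbb encode βA and βB, the subunits of activin A and activin B, which pair with the inhibin α subunit in the gonads to form inhibins; Inhbc and Inhbe encode βC and βE, which are made mainly by hepatocytes. Each precursor is cleaved by furin-like convertases, and the mature dimer binds a type II receptor such as ACVR2A and then a type I receptor, ALK4 (Acvr1b) or ALK7 (Acvr1c), which phosphorylates SMAD2 and SMAD3. Follistatin (Fst) and the follistatin-like protein FSTL3 bind activins outside the cell and keep them from their receptors. Activin E made in liver is known to act on adipocytes through ALK7, a receptor found mainly in fat.

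The genes of βE and βC lie next to each other on chromosome 10, on the minus strand, and after CL316243 both were lower in AAKO than in CTRL liver, as was the βA gene on chromosome 13, whereas the βB gene on chromosome 1 rose with fasting. The 250 bases that precede the start site of these 4 genes are shown so that they can be read side by side, from RefSeq on build GRCm38.p6, which had entries for 7 of the 8 genes. Capitals mark matches to the motifs TGATGCAA, the composite element bound by C/EBP and ATF4, CCAAT, and TATAAA, searched on both strands.
Inhbe, chr10:127351849-127352098, minus strand: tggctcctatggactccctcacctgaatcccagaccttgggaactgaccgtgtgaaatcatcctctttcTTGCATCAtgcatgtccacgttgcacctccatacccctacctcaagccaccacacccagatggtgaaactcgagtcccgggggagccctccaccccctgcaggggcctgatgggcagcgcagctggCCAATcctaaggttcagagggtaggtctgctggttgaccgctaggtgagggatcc
Inhbc, chr10:127370549-127370798, minus strand: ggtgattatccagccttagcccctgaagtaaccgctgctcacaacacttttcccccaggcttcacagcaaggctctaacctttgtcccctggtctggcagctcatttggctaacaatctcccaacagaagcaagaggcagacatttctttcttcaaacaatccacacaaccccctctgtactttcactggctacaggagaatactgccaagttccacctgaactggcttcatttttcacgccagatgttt
Inhba, chr13:16011601-16011850, plus strand: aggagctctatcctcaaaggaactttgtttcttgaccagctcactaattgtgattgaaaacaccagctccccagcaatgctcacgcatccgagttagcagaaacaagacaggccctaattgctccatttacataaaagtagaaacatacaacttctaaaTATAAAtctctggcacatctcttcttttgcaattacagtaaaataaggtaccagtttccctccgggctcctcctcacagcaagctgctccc
Inhbb, chr1:119422249-119422498, minus strand: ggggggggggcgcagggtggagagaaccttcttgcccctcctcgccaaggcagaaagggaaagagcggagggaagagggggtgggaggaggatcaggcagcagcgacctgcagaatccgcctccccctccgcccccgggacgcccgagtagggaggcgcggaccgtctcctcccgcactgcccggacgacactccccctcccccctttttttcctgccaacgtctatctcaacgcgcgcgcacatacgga
The Inhbe window held TGATGCAA on the opposite strand at positions -181 to -174 from the start site, and CCAAT at -55 to -51. TGATGCAA was present in 0.762% of 32536 distinct windows of this length and CCAAT in 33.8%. The Inhba window held TATAAA at -91 to -86, a motif of 12.3% of windows. The windows of Inhbc and Inhbb held none of these. The other motifs searched were in none of the 4 windows: the cAMP response element TGACGTCA (in 1.56% of all windows), the FoxO core GTAAACA (3.17%), the E-box CACGTG (6.04%), the SMAD palindrome GTCTAGAC (0.169%), the STAT element TTCNNNGAA (7.04%), a glucocorticoid response element (0.0307%) and a nuclear receptor direct repeat (0.0338%). The motifs were chosen after the Inhbe window had been read, and a match describes letters only.

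On the arrays, Inhbe, Inhbc, Inhba and Inhbb each had 1 probe of 60 bases. On build mm9 these lie at chr10:126786719-126786778, chr10:126793865-126793924, chr13:16118634-16118693 and chr1:121312160-121312219. The probes of Inhbe and Inhbc are 7087 bases apart. Those of Inhba and Fst lie in coding sequence and are shown because they fix which transcript was read; the Fst probe joins 2 exons, spanning chr13:115244692-115245364.
Inhba probe: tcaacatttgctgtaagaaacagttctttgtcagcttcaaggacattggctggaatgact
Fst probe: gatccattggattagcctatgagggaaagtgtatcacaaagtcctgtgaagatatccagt

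Every value below is log2 of the background-subtracted signal minus the 75th percentile of its array, a level with no unit in which 1 step is a doubling, and levels are compared between arrays for 1 probe, never between probes. A gene was called at a Benjamini-Hochberg adjusted p under 0.05 in limma's moderated test across all 24251 genes. The number of probes well above background ranged from 33130 to 37200 per array, and any 2 arrays correlated between 0.945 and 0.995 over the tested genes. All 8 hepatocyte markers were well above background on all 36 arrays. CTRL fasted replicate 2 stood apart: on the first principal component it lay at 81.3, while the other CTRL fasted arrays lay between 16.8 and 29.0 and the AAKO fasted arrays between 102.8 and 110.8. Of the members' values that rest on the CTRL fasted group, no call changed without it; those of Inhba, Inhbb, Inhbc and Inhbe are given both ways. ATGL was removed in fat and liver was measured, so no array checks the deletion; in liver the mRNA of its gene, Pnpla2, gave AAKO minus CTRL -0.45 ± 0.19 (SE; adjusted p = 0.656) in fed, 1.28 ± 0.19 (adjusted p = 9e-07) in fasted and 0.66 ± 0.19 (adjusted p = 0.00926) in CL316243-treated mice. In bulk liver, fewer cells of a type and less RNA per cell cannot be told apart.

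Inhbe, which encodes βE, had the widest range of the family, 6.31 log2 units between its highest and lowest group means. In CTRL mice the lowest, median and highest arrays read 2.27, 2.99 and 3.69 when fed, 1.71, 2.62 and 3.44 when fasted, and 3.66, 3.94 and 4.37 after CL316243. In AAKO mice they read 1.45, 2.07 and 3.01 when fed, -2.68, -2.56 and -1.10 when fasted, and 0.98, 1.32 and 2.20 after CL316243. The fasted AAKO arrays lay below every other array of the series, and the CTRL arrays after CL316243 lay above every AAKO array. All 36 arrays were well above background for this probe.

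In fasted mice the Inhbe level was 2.53 ± 0.62 (SD, n = 6) in CTRL and -2.31 ± 0.61 (SD, n = 6) in AAKO, a difference of -4.84 ± 0.31 (SE), or 28.6-fold lower in AAKO. This is the value that led to the choice of the family and is a description. Without CTRL fasted replicate 2 it was -5.02. After CL316243, Inhbe was 5.62-fold lower in AAKO, at 1.5 ± 0.56 (SD, n = 6) against 4.00 ± 0.26 (SD, n = 6) in CTRL, with no overlap between the arrays (difference -2.49 ± 0.31, SE; limma adjusted p = 4.11e-07). In fed mice the difference was -0.85 ± 0.31 (SE), the arrays overlapped and the gene was not called (adjusted p = 0.534, 95% interval -1.47 to -0.22).

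Fasting lowered Inhbe in AAKO liver by 21.9-fold relative to the fed group (-4.45 ± 0.31, SE; adjusted p = 7.37e-14), a contrast that shares its fasted arrays with the one that chose the family. The same limit holds for every fasted group below: fasted arrays of both genotypes entered that choice, so tests that use them are not independent of it. In CTRL liver the same comparison gave -0.46 ± 0.31 (SE), with overlapping arrays and no call (adjusted p = 0.24), and -0.28 (adjusted p = 0.507) without CTRL fasted replicate 2. CL316243 raised Inhbe 2.02-fold in CTRL liver (1.02 ± 0.31, SE; adjusted p = 0.0154); the arrays of these groups overlapped, since fed replicate 5 read 3.69 and the lowest CL316243 array 3.66. This call did not hold within either wash batch, where the difference was 1.30 (adjusted p = 0.0677) in batch 1 and 0.73 (adjusted p = 0.257) in batch 2. In AAKO liver the CL316243 difference was -0.63 ± 0.31 (SE) and was not called (adjusted p = 0.126); it was -1.22 (adjusted p = 0.0405) within wash batch 1 and 0.28 within batch 2. The response to CL316243 differed between genotypes by -1.64 ± 0.44 (SE; interaction term, adjusted p = 0.0116); it was -2.52 (adjusted p = 0.0381) within wash batch 1 and -0.45 (adjusted p = 0.763) within batch 2.

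Inhbc, the βC gene beside Inhbe, was lower in fasted and in CL316243-treated AAKO liver than in fed AAKO liver. Its lowest, median and highest CTRL arrays read 1.56, 1.96 and 2.55 when fed, 0.51, 1.18 and 1.48 when fasted, and 1.70, 2.19 and 2.81 after CL316243. The AAKO arrays read 1.80, 2.16 and 2.23 when fed, -1.89, -1.42 and -1.0 when fasted, and 0.38, 1.03 and 1.44 after CL316243. The fed groups of both genotypes overlapped, and the fasted AAKO arrays again lay below all others. The group means in descending order were CTRL CL316243 (2.22), AAKO fed (2.06), CTRL fed (2.02), CTRL fasted (1.11), AAKO CL316243 (0.98) and AAKO fasted (-1.41); the first 3 overlapped, as did CTRL fasted with AAKO CL316243, and AAKO fasted overlapped with none.

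The genotype difference in Inhbc was 0.04 ± 0.20 (SE) in fed mice (adjusted p = 0.986, 95% interval -0.36 to 0.44), -2.52 ± 0.20 (SE) in fasted mice as a description (-2.64 without CTRL fasted replicate 2), and -1.24 ± 0.20 (SE) after CL316243 (adjusted p = 1.88e-05). Fasting lowered Inhbc in both genotypes, 1.88-fold in CTRL (-0.91 ± 0.20, SE; adjusted p = 0.000305) and 11-fold in AAKO (-3.46 ± 0.20, SE; adjusted p = 1.01e-15). Without CTRL fasted replicate 2, the lowest array of its group at 0.51, the CTRL value was -0.78 (adjusted p = 0.00161). CL316243 lowered Inhbc in AAKO 2.1-fold (-1.07 ± 0.20, SE; adjusted p = 8.37e-05), a call lost within wash batch 2 (-0.93, adjusted p = 0.0616), and left it at 0.20 ± 0.20 (SE) above the fed level in CTRL, which was not called (adjusted p = 0.515). These responses differed by -1.27 ± 0.28 (SE; interaction, adjusted p = 0.00219), although neither wash batch alone gave a call (-1.05, adjusted p = 0.144, and -1.42, adjusted p = 0.0829).

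Inhba, the βA gene, was also lowest in fasted AAKO liver, followed by AAKO liver after CL316243. The lowest, median and highest CTRL arrays read -0.71, -0.33 and 0.98 when fed, -2.69, -0.70 and 0.32 when fasted, and 0.10, 0.49 and 1.01 after CL316243. In AAKO liver they read 0.24, 0.39 and 0.73 when fed, -4.25, -3.73 and -2.99 when fasted, and -1.74, -1.54 and -1.04 after CL316243. The CTRL fasted group was spread the most, with replicate 2 at -2.69 and replicate 3 at 0.32, and only that replicate 2 came near the fasted AAKO arrays.

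Inhba was 4.28-fold lower in AAKO than in CTRL liver after CL316243 (-2.10 ± 0.30, SE; adjusted p = 2.96e-06), with no overlap, and the difference was -1.91 within wash batch 1 and -2.21 within batch 2, both called. In fasted mice the difference was -2.83 ± 0.29 (SE), and -3.18 without CTRL fasted replicate 2, given as a description. In fed mice it was 0.58 ± 0.29 (SE), in the other direction, and was not called (adjusted p = 0.744). CL316243 lowered Inhba 3.93-fold in AAKO (-1.98 ± 0.30, SE; adjusted p = 4.64e-06), while the CTRL difference was 0.70 ± 0.29 (SE; adjusted p = 0.0849). The CTRL value was called when CTRL fed replicate 4, the array at 0.98, was left out (0.90, adjusted p = 0.0254). It was also called after normexp background correction (0.59, adjusted p = 0.0385) and in the authors' deposited log2 table (0.66, adjusted p = 0.0495). In that table the arrays of a group hold the same sorted values, which can narrow the spread within a group. Calls made there, here and below, carry this limit. The interaction was -2.67 ± 0.42 (SE; adjusted p = 4.88e-05) and was called within each wash batch.

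Fasting lowered Inhba 17.3-fold in AAKO (-4.11 ± 0.29, SE; adjusted p = 1.59e-13). In CTRL the difference was -0.70 ± 0.29 (SE), just outside the threshold (adjusted p = 0.0541). That CTRL call turned on single arrays: without CTRL fasted replicate 3 it was -0.91 (adjusted p = 0.011), without CTRL fasted replicate 4 -0.86 (adjusted p = 0.0208), without CTRL fed replicate 1 -0.78 (adjusted p = 0.0434) and without CTRL fed replicate 3 -0.77 (adjusted p = 0.0458), whereas without CTRL fasted replicate 2 it was -0.35 (adjusted p = 0.253).

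**Figure D1:**
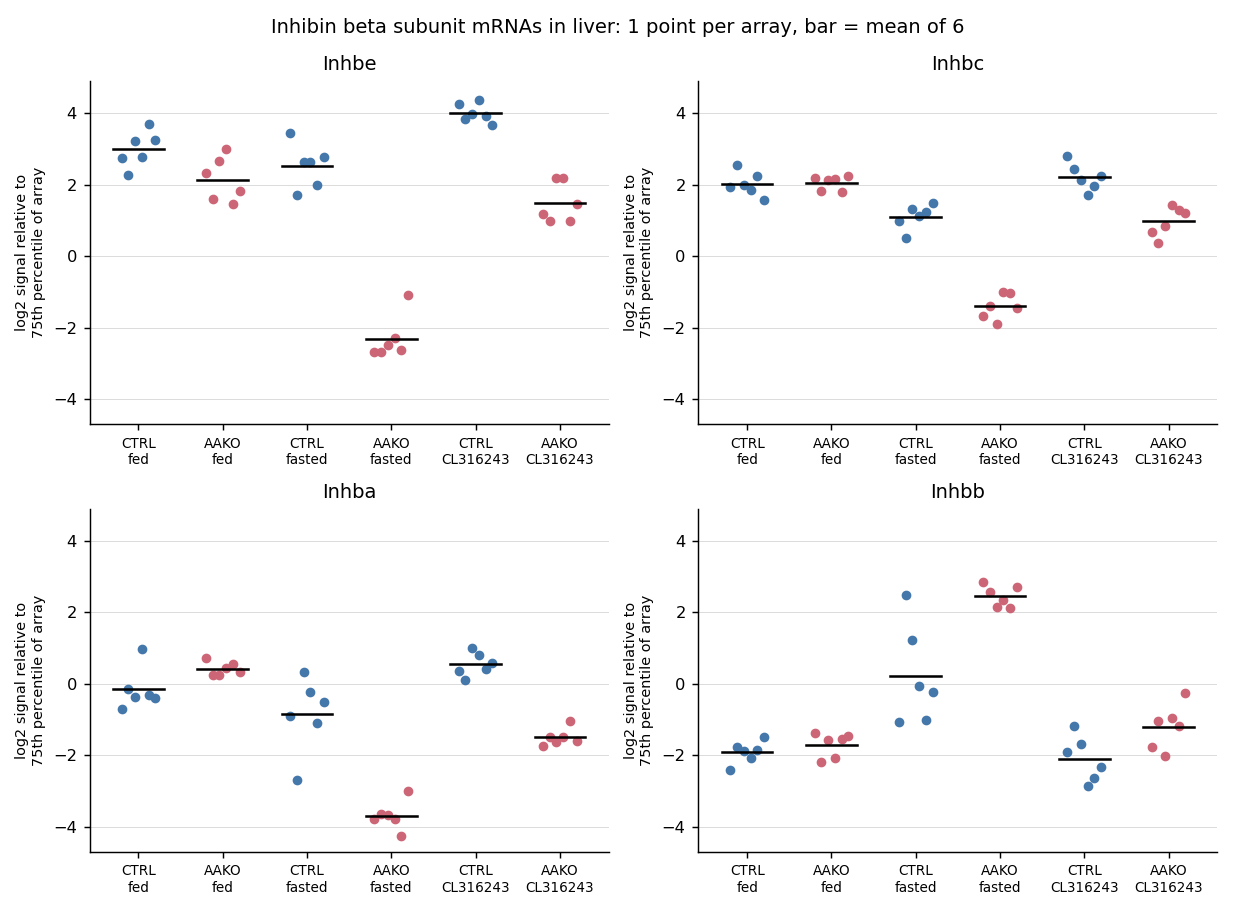
Level of each inhibin β subunit mRNA (y axis, log2 signal minus each array's 75th percentile) in the 6 groups (x axis), with 1 point per array and a bar at the mean of 6. Inhbe, Inhbc and Inhba are lowest in AAKO fasted liver, with means of -2.31, -1.41 and -3.69, and Inhbb is highest there, with a mean of 2.46; the levels of different genes are not comparable with each other.

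Inhbb, the βB gene, was the subunit that rose with fasting. Its lowest, median and highest CTRL arrays read -2.42, -1.88 and -1.48 when fed, -1.07, -0.15 and 2.48 when fasted, and -2.85, -2.12 and -1.19 after CL316243. The AAKO arrays read -2.20, -1.56 and -1.38 when fed, 2.11, 2.46 and 2.85 when fasted, and -2.03, -1.11 and -0.27 after CL316243. The 6 AAKO fasted arrays lay close together (SD 0.30), whereas the CTRL fasted arrays were spread widely (SD 1.39): replicate 2 read 2.48, inside the AAKO fasted range, replicate 3 read 1.23, and the remaining arrays lay between -1.07 and -0.07.

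Fasting raised Inhbb 4.39-fold in CTRL (2.13 ± 0.40, SE; adjusted p = 5.39e-05) and 18-fold in AAKO (4.17 ± 0.40, SE; adjusted p = 1.1e-10), with no overlap with the fed arrays in either genotype. Without CTRL fasted replicate 2 the CTRL difference was 1.67 (adjusted p = 0.000115). The fasted genotypes differed by 2.24 ± 0.40 (SE), 4.72-fold higher in AAKO, or 2.70 without that array, and overlapped only through it, a description as above. Neither the fed genotypes (0.21 ± 0.40, SE; adjusted p = 0.953) nor the CL316243-treated genotypes (0.90 ± 0.40, SE; adjusted p = 0.105, 95% interval 0.07 to 1.72) differed by enough to be called. CL316243 against fed gave -0.18 ± 0.40 (SE) in CTRL and 0.50 ± 0.40 (SE) in AAKO, neither of them called (adjusted p = 0.795 and 0.377).

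Fasted and CL316243-treated mice belong to the same experiment, so this comparison does not hold the difference between experiments, although its fasted arrays entered the choice of the family. It does hold the gavage, which is stated for the CL316243 groups only. Fasted against CL316243-treated liver, Inhbb was 4.99-fold higher in CTRL (adjusted p = 2.38e-05) and 12.7-fold higher in AAKO (adjusted p = 2.46e-09). Inhbe was 2.78-fold lower in CTRL (adjusted p = 0.000261) and 14.2-fold lower in AAKO (adjusted p = 3.59e-12). For Inhbc the fasted level was 2.16-fold lower in CTRL (adjusted p = 3.28e-05) and 5.24-fold lower in AAKO (adjusted p = 5.74e-12), and for Inhba 2.63-fold lower (adjusted p = 0.000297) and 4.39-fold lower (adjusted p = 2.04e-07). Without CTRL fasted replicate 2 the CTRL differences went from 2.32 to 1.86 for Inhbb, from -1.48 to -1.30 for Inhbe, from -1.11 to -0.98 for Inhbc and from -1.40 to -1.05 for Inhba, all still called. Within wash batch 1 the CTRL calls of Inhba (-0.87, adjusted p = 0.111) and Inhbc (-0.69, adjusted p = 0.0737) were lost. The AAKO minus CTRL difference in fasted mice, less that in CL316243-treated mice, was -2.35 ± 0.44 (SE) for Inhbe, -1.28 ± 0.28 for Inhbc, -0.74 ± 0.42 for Inhba (0.011 after normexp background correction) and 1.34 ± 0.57 for Inhbb, given without a test.

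The antagonist gene Fst, which encodes follistatin, varied less and more unevenly. Its lowest, median and highest CTRL arrays read -2.31, -1.88 and -1.26 when fed, -1.87, -1.23 and -0.36 when fasted, and -2.75, -1.64 and -1.37 after CL316243. The AAKO arrays read -1.43, -1.20 and -1.09 when fed, -0.75, -0.05 and 1.44 when fasted, and -2.41, -1.56 and 0.60 after CL316243. AAKO liver after CL316243 had the widest spread of the 6 groups (SD 1.28), with replicates 1 and 3 at 0.60 and 0.15 and the others between -2.41 and -1.10.

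Fst rose with fasting in AAKO, 2.52-fold above the fed group without overlap (1.33 ± 0.43, SE; adjusted p = 0.00694) and 2.42-fold above the CL316243 group with overlap (1.27 ± 0.43, SE; adjusted p = 0.0109). Both calls were lost within wash batch 1 (0.97, adjusted p = 0.182, and 0.92, adjusted p = 0.18) and kept within batch 2 (1.70, adjusted p = 0.0136, and 1.52, adjusted p = 0.0442). The second was also lost when those 2 groups alone were fitted (1.17, adjusted p = 0.109). In CTRL, fasting gave 0.63 ± 0.43 (SE) and was not called (adjusted p = 0.243), but was called when those 2 groups alone were fitted (adjusted p = 0.0211). The fasted genotype difference, a description, was 1.26 ± 0.43 (SE), but 0.19 within wash batch 1 and 2.33 within batch 2. No other comparison called Fst: AAKO minus CTRL was 0.56 ± 0.43 (SE) in fed mice and 0.63 ± 0.43 (SE) after CL316243 (adjusted p = 0.831 and 0.301).

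Fstl3 was not called in any comparison by the model of all groups. Its 6 group means lay between -3.87 and -3.49, a range of 0.38, and neighbours in that order overlapped throughout. The largest difference was CL316243 against fed in AAKO, -0.33 ± 0.15 (SE; adjusted p = 0.086, 95% interval -0.63 to -0.03), which was called without AAKO fed replicate 4, an array at -4.28 while the others of its group lay between -3.79 and -3.22 (-0.49, adjusted p = 0.0054), and within wash batch 2 (-0.65, adjusted p = 0.0438). Fasted against CL316243 gave 0.26 ± 0.15 (SE; adjusted p = 0.174) in CTRL and 0.27 ± 0.15 (SE; adjusted p = 0.112) in AAKO; the first was called when those 2 groups alone were fitted (adjusted p = 0.0395) and the second in the authors' deposited log2 table (0.26, adjusted p = 0.0277). The fasted genotype difference was -0.09 ± 0.15 (SE).

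The receptor gene Acvr2a was read by 3 probes that did not agree. Probe 3, the brightest and the one that stands for the gene, lies at chr2:48758259-48758318 (mm9), near the 3′ end of the transcript; probe 2 lies at chr2:48755621-48755680 in the same transcript; probe 1 lies at chr2:48671567-48671626 and was designed on a different transcript sequence. Probe 3 kept its group means between -0.55 and -0.19. With fasting it gave 0.09 ± 0.08 (SE) in CTRL and 0.01 ± 0.08 in AAKO, with adjusted p = 0.358 and 0.92. Probe 2 rose with fasting 1.46-fold in CTRL (0.55 ± 0.12, SE; adjusted p = 0.000374) and 2.05-fold in AAKO (1.03 ± 0.12, SE; adjusted p = 5.98e-09). Probe 1 rose 1.48-fold in CTRL (0.57 ± 0.20, SE; adjusted p = 0.024) and 2.08-fold in AAKO (1.06 ± 0.20, SE; adjusted p = 3.6e-05). The calls for probes 1 and 2 come from the same model fitted with every probe on its own.

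Probe 3 of Acvr2a was lower after CL316243 in AAKO than in the fed group by 1.17-fold (-0.23 ± 0.08, SE; adjusted p = 0.0228), and higher in fasted than in CL316243-treated AAKO by 1.18-fold (0.24 ± 0.08, SE; adjusted p = 0.00847). The first of these was lost without AAKO CL316243 replicate 6 (-0.19, adjusted p = 0.0686) or AAKO fed replicate 2 (-0.21, adjusted p = 0.0531), and within each wash batch (adjusted p = 0.21 and 0.177); the second was lost within batch 2 (0.12, adjusted p = 0.329). Probes 2 and 1 gave 0.03 ± 0.12 (SE) and -0.24 ± 0.21 (SE) for the first, neither of them called (adjusted p = 0.902 and 0.409). For the second, their fasted and CL316243 means in AAKO lay further apart than those of probe 3. They were -1.88 against -2.89 on probe 2 and -3.56 against -4.86 on probe 1. The CTRL means were -2.38 against -2.79 on probe 2 and -4.13 against -4.38 on probe 1. In CTRL, fasted against CL316243 gave 0.17 ± 0.08 (SE) for probe 3 (adjusted p = 0.0774); it was called without CTRL CL316243 replicate 2 (0.21, adjusted p = 0.0425) or CTRL fasted replicate 5 (0.23, adjusted p = 0.0173). AAKO minus CTRL after CL316243 was -0.19 ± 0.08 (SE; adjusted p = 0.0763) for probe 3, and was called in the authors' deposited log2 table (-0.22, adjusted p = 0.0304). The ALK7 gene Acvr1c was not well above background on any of the 36 arrays, between -8.25 and -6.08, so no fold is given.

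**Figure D2:**
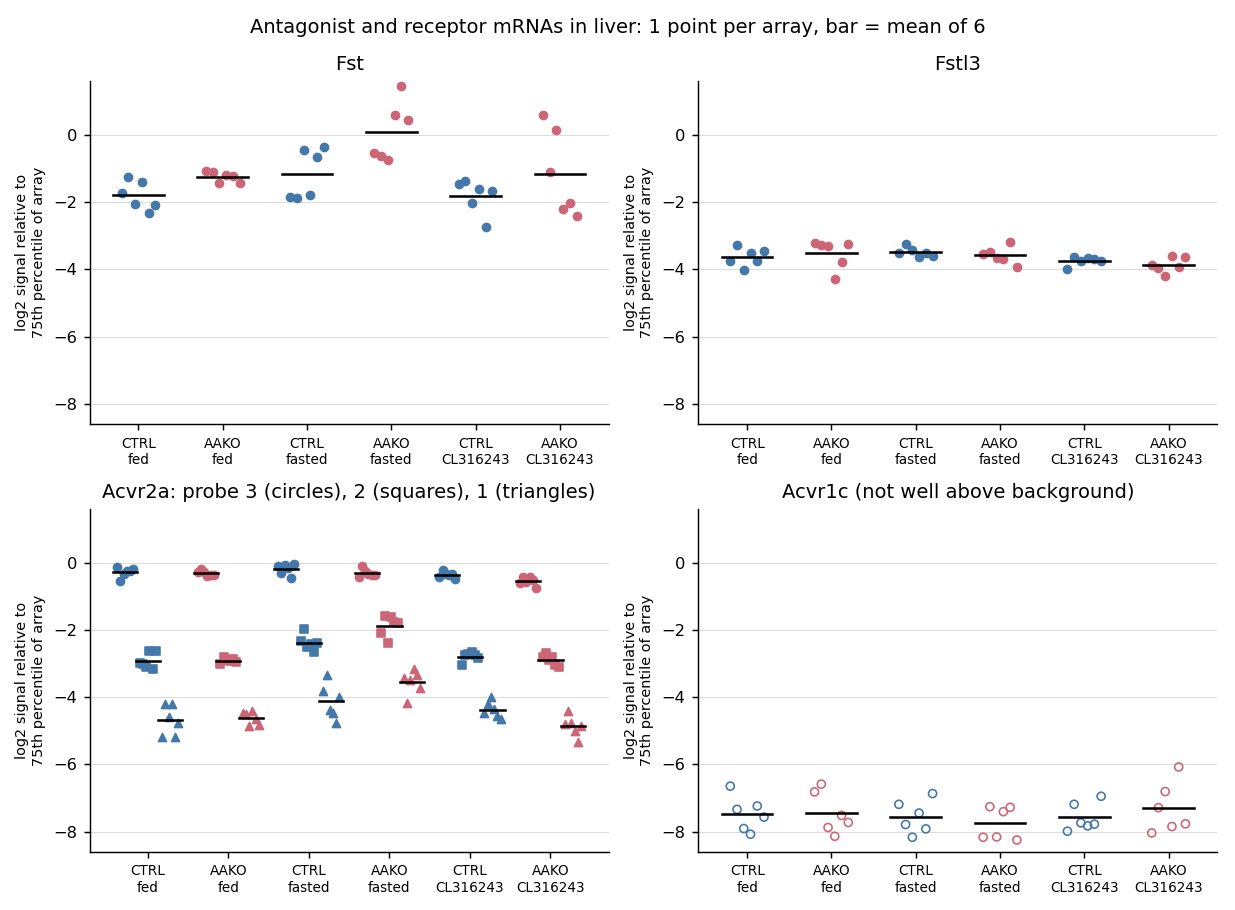
Level of the antagonist and receptor mRNAs (y axis, log2 signal minus each array's 75th percentile) in the 6 groups (x axis), with 1 point per array and a bar at the mean of 6; open points mark the Acvr1c probe, which was not well above background. Fst spans -2.75 to 1.44 with its highest mean in AAKO fasted liver, the Fstl3 group means stay within 0.38, and probes 1 and 2 of Acvr2a are higher in the fasted groups while probe 3 is not.

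Read by role, the group means of the β subunits spanned from 3.63 (Inhbc) to 6.31 (Inhbe) log2 units. Those of Fst spanned 1.91, of Fstl3 0.38 and of Acvr2a 0.36 on probe 3, but 1.31 and 1.05 on its probes 1 and 2. For each subunit 1 end of the range was AAKO fasted liver, a group that entered the choice of the family. In fed mice 0 of the 7 tested members were called between genotypes, where 0.0783% of all tested genes were (19 genes; 1644 at an unadjusted p under 0.05). After CL316243 3 of 7 were called, all lower in AAKO, where 24.7% of all genes were called. In fasted mice 3 of 7, again Inhba, Inhbc and Inhbe, had arrays that did not overlap between genotypes, beside 21.3% of all genes, and 49.3% of all genes were called there; nothing is read from this count, since the contrast was used in the choice. The median difference of the 7 members was 0.11 in fed mice, -0.12 in fasted mice and -0.19 after CL316243, beside 0.00, -0.04 and 0.03 over all genes. Each median is the value of 1 gene and describes no shift of the family. It is Fstl3 in fed mice and Acvr2a probe 3 in fasted and in CL316243-treated mice. In fasted mice Acvr2a probes 2 and 1 went the other way, with AAKO against CTRL means of -1.88 against -2.38 and -3.56 against -4.13.

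**Figure D3:**
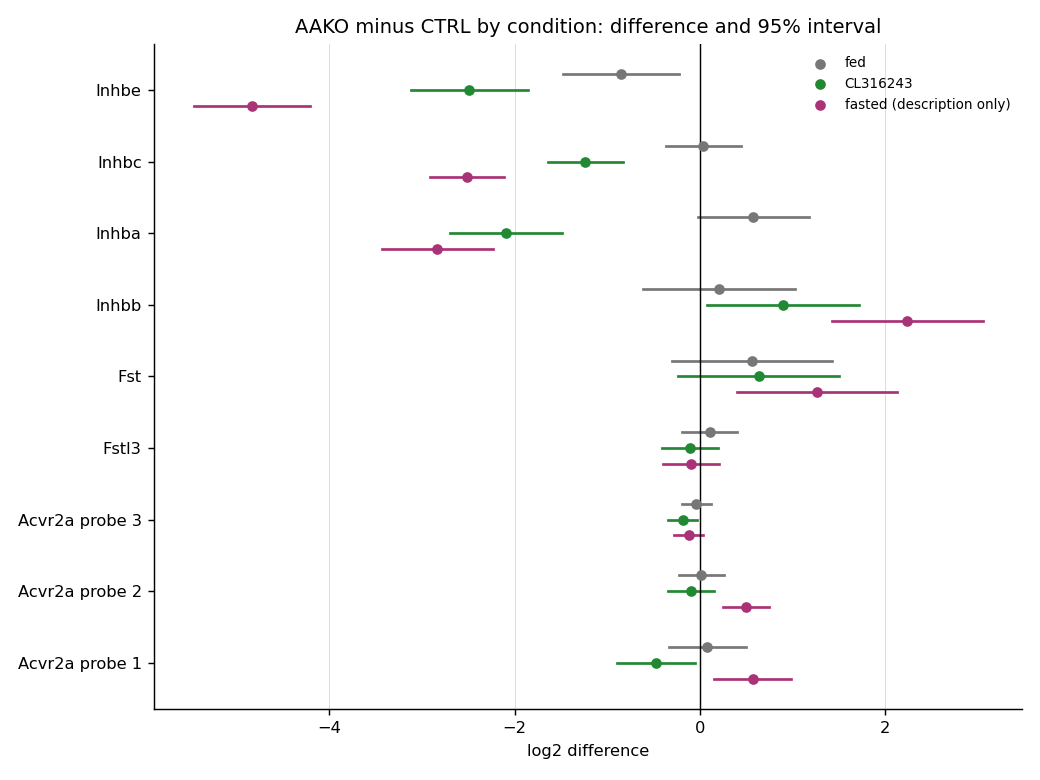
AAKO minus CTRL difference (x axis, log2) for each member (y axis, with all 3 Acvr2a probes) in fed, CL316243-treated and fasted mice; points are limma estimates and lines their 95% intervals. For Inhbe, Inhbc and Inhba the fed interval lies apart from the CL316243 interval, which runs from -3.12 to -1.86, -1.64 to -0.83 and -2.70 to -1.49.

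Fasting against feeding called 2 of 7 members in CTRL, Inhbb higher and Inhbc lower, where 43.3% of all genes were called, and 5 of 7 in AAKO, where 63.5% were. CL316243 against feeding called 1 of 7 in CTRL, Inhbe, where 23.3% of all genes were called, and 3 of 7 in AAKO, Inhba, Inhbc and Acvr2a, where 31.4% were. Fasting against CL316243 called 4 of 7 in CTRL beside 36.8% of all genes, and 6 of 7 in AAKO beside 59.9%. The CL316243 by genotype interaction called 3 of 7 members beside 10.9% of all genes. With 7 members, these shares differ from the background by a few genes at most. The counts that use fasted arrays are not independent of the choice of the family, so nothing is read from them against the shares of all genes. Acvr2a is counted by probe 3 alone. Its probes 1 and 2 were called higher with fasting in both genotypes, and neither was called for CL316243 against fed in AAKO. Comparisons of fasted and of CL316243-treated mice share their fed arrays within a genotype.

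**Figure D4:**
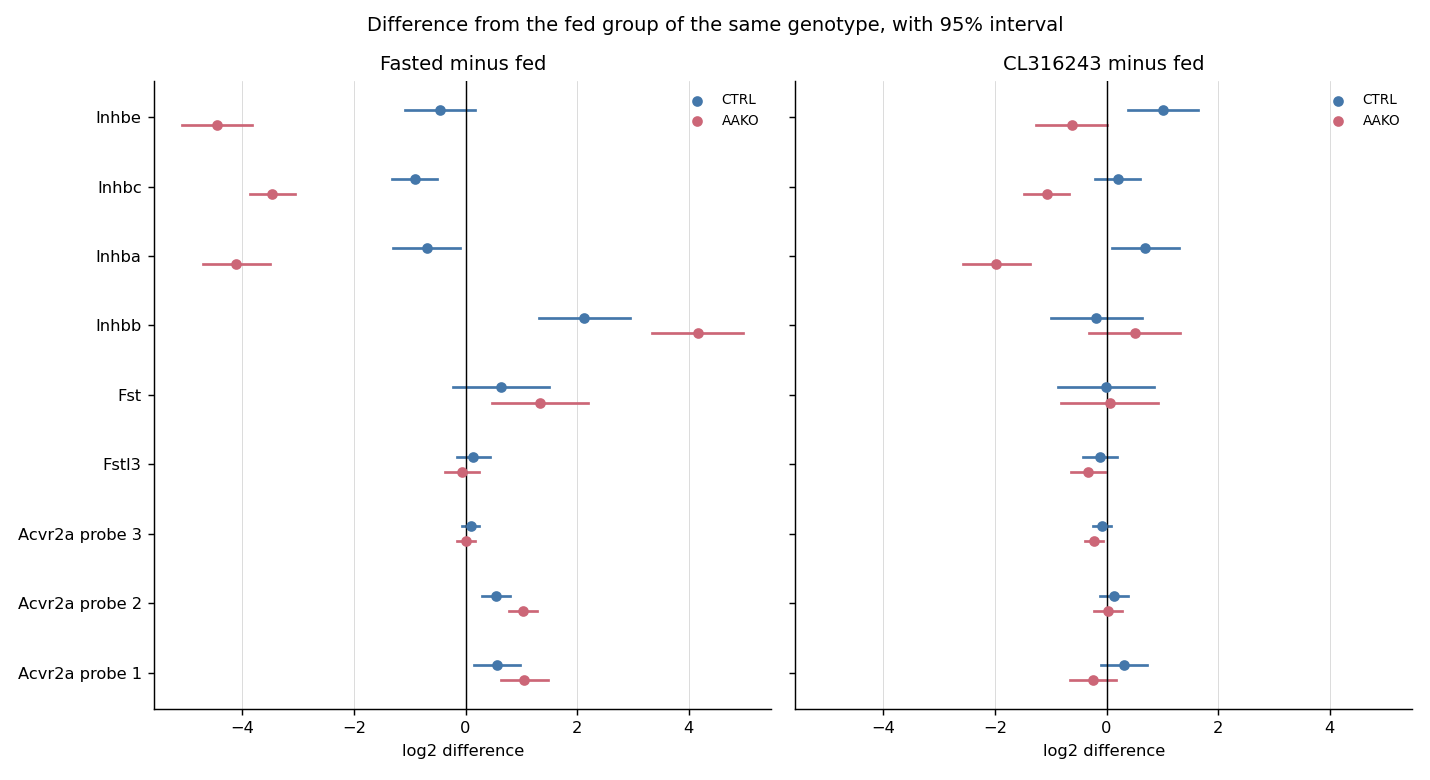
Difference of fasted (left) and CL316243-treated (right) liver from the fed group of the same genotype (x axis, log2) for each member (y axis); points are limma estimates and lines their 95% intervals, with CTRL and AAKO in separate colours. In fasted AAKO liver Inhbe, Inhbc and Inhba lie at -4.45, -3.46 and -4.11 and Inhbb at 4.17; after CL316243 Inhba and Inhbc lie at -1.98 and -1.07 in AAKO and at 0.70 and 0.20 in CTRL.

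Other genes of the pathway were taken from fixed lists of ligands, antagonists, receptors, convertases, SMAD proteins and their targets, 67 entries of which 61 were tested. Inha, Mstn, Gdf11, Bmpr1b, Grem1 and Cer1 were not, Inha being the α subunit without which no inhibin forms. In fed mice 0 of 61 were called between genotypes. In fasted mice 31 were called, 22 higher and 9 lower in AAKO, beside 49.3% of all genes, and after CL316243 17 were, 10 higher and 7 lower, beside 24.7%. Fasting called 27 in CTRL (18 higher, 9 lower), beside 43.3% of all genes, and 40 in AAKO (29 higher, 11 lower), beside 63.5%. These 4 shares lay near those of all genes. CL316243 called 21 in CTRL (5 higher, 16 lower), beside 23.3%, and 27 in AAKO (9 higher, 18 lower), beside 31.4%. The median difference of the 61 genes was 0.13 with fasting in CTRL and 0.33 in AAKO, beside -0.02 and -0.09 over all genes.

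Among extracellular antagonists other than the follistatins, 7 of 8 changed with fasting in AAKO, 6 of them upward, beside 63.5% of all genes called, and 3 of 8, all upward, in CTRL, beside 43.3%. Bmper, a secreted regulator of BMPs, rose by 4.47 ± 0.48 (SE; adjusted p = 1.41e-09) in AAKO and by 1.88 ± 0.48 (adjusted p = 0.00191) in CTRL. Its fasted level was 2.66 ± 0.48 higher in AAKO than in CTRL (adjusted p = 2.89e-05), and after CL316243 1.44 ± 0.49 higher (adjusted p = 0.0277). Wfikkn1, which encodes an inhibitor of myostatin and GDF11, rose by 2.43 ± 0.25 in AAKO (adjusted p = 6.83e-10) and 0.85 ± 0.25 in CTRL (adjusted p = 0.00674). Its relative Wfikkn2 was well above background on all 6 AAKO fasted arrays, on 1 CTRL fasted and 1 AAKO CL316243 array, and on none of the other groups' arrays. Wfikkn2 is among the 8 tested antagonists but passed the filter only through AAKO fasted liver. Its part in the counts that use that group is therefore no separate evidence.

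Of 13 receptors and coreceptors, 9 were called between fasted genotypes, 6 of them higher in AAKO, beside 49.3% of all genes, and 6 after CL316243, 4 of them higher, beside 24.7%. Acvr1b, the ALK4 gene, was 1.06 ± 0.15 (SE) higher in AAKO than in CTRL after CL316243 (adjusted p = 3.42e-06) and gave -0.44 ± 0.15 in fasted mice (adjusted p = 0.0153). Its second probe gave 1.66 (adjusted p = 0.000255) for the first of these and -0.16 (adjusted p = 0.704) for the other. Tgfbr3, the coreceptor betaglycan, which also presents inhibin to activin receptors, rose with fasting by 1.66 ± 0.13 in AAKO (adjusted p = 7.96e-13), while CTRL gave 0.13 ± 0.13 (adjusted p = 0.428). The SMADs that carry the activin signal moved apart with fasting in AAKO, Smad2 by 1.21 ± 0.11 (adjusted p = 4.17e-11) and Smad3 by -1.34 ± 0.13 (adjusted p = 3.07e-10). In CTRL they moved by 0.38 ± 0.11 (adjusted p = 0.00538) and -0.43 ± 0.13 (adjusted p = 0.0102). Second probes gave 0.49 and -1.41 in AAKO, both called, and 0.05 for Smad2 in CTRL, which was not (adjusted p = 0.647).

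Furin, the convertase that matures activin precursors, gave -0.03 ± 0.05 and -0.04 ± 0.05 (SE) with fasting in CTRL and AAKO (adjusted p = 0.733 and 0.495) on its brightest probe, whereas its other probe rose by 0.43 (adjusted p = 1.08e-05) and 0.93 (adjusted p = 9.64e-13), so its probes disagree. Pcsk6, another convertase, was lower in AAKO than in CTRL after CL316243 (-0.52 ± 0.09, SE; adjusted p = 4.48e-05). Pcsk5 fell by 1.51 with fasting in AAKO on its brightest probe (adjusted p = 1.06e-07), but 2 further probes gave 0.35 and 0.74, of which the second was called (adjusted p = 3.7e-06). Of 9 common SMAD target genes, 5 rose and 0 fell with fasting in AAKO, and 2 rose and 1 fell in CTRL, beside 63.5% and 43.3% of all genes called. Id4 rose by 1.55 ± 0.23 (adjusted p = 6.38e-07) in AAKO and by 1.36 ± 0.23 (adjusted p = 1.29e-05) in CTRL. Skil, a repressor of SMAD signalling that is itself a SMAD target, rose by 0.96 ± 0.16 in AAKO (adjusted p = 2.73e-06), and Ccn2 (Ctgf on the array) fell by 1.47 with CL316243 in CTRL (-1.47 ± 0.26, SE; adjusted p = 0.000114). Of 13 other ligands of the TGF-β family, CL316243 lowered 7 in CTRL and 6 in AAKO and raised 0 in either, beside 23.3% and 31.4% of all genes called; Bmp2 fell by 0.45 in both (adjusted p = 0.0169 and 0.013).

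**Figure D5:**
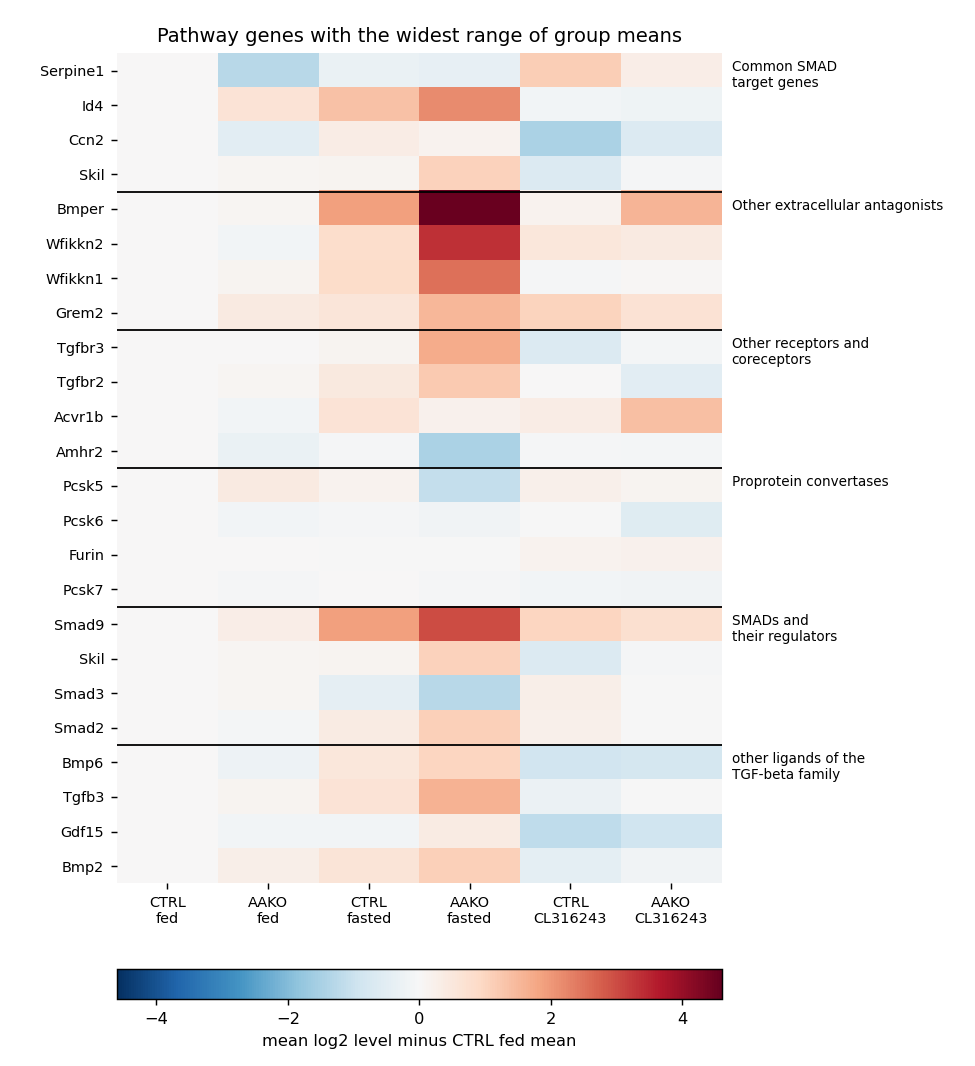
Group means of the pathway genes with the widest range in each list (rows, grouped by list) in the 6 groups (columns), coloured by the difference from the CTRL fed mean (log2; red higher, blue lower). Bmper has the strongest colour in AAKO fasted liver, at a mean of 0.42 against -4.11 in CTRL fed liver; Skil belongs to both the SMAD regulators and the SMAD targets, and Wfikkn2 was near background outside AAKO fasted liver.

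Markers of other cell types moved with some of these groups, and their part in the members' values was not tested. The shares of all genes called in the same comparisons were 49.3% between fasted genotypes, 24.7% between CL316243-treated genotypes, 23.3% and 31.4% for CL316243 against fed in CTRL and AAKO, and 36.8% and 59.9% for fasted against CL316243. Of 5 neutrophil markers, 3 were called higher in AAKO than in CTRL fasted liver. The summed linear signal of the 5, in multiples of the 75th percentile, ran from 5.69 to 79.2 (median 22.3) in AAKO and from 0.94 to 49.9 (median 1.94) in CTRL. Ngp, 1 of the 5, was well above background on only 11 of the 36 arrays. It may have passed the filter only through a group where it is high. Its part in the neutrophil counts here and below is therefore no separate evidence. Of 6 liver endothelium markers, 5 fell with CL316243 in CTRL and 3 in AAKO, and 4 were higher in fasted than in CL316243-treated liver of each genotype. Of 6 Kupffer cell markers, 4 fell with CL316243 in CTRL and 5 in AAKO. Of 5 cholangiocyte markers, 3 fell and 0 rose with fasting in each genotype, and 2 were lower and 0 higher in AAKO than in CTRL fasted liver. Of 8 stellate cell markers, 3 fell and 0 rose with CL316243 in each genotype, and 1 was higher and 1 lower in AAKO than in CTRL fasted liver. Fasting against feeding called 3 neutrophil markers higher and 1 lower in AAKO, and 0 in CTRL. The summed signal of 6 adipocyte markers stayed between 0.55 and 1.18 on all arrays, while single markers moved in both directions: fasting raised 2 and lowered 1 in each genotype, beside 43.3% and 63.5% of all genes called, and 1 was higher and 1 lower in AAKO than in CTRL fasted liver. Of 8 hepatocyte markers, 3 were higher and 3 lower in AAKO than in CTRL fasted liver, and 4 were higher and 0 lower after CL316243. Of 5 pancreas markers, Pnlip and Ins2 were not well above background on any array, Prss2 was on 2, Cpa1 on 6 and Cela2a on all 36. Cela2a was called higher in AAKO in fasted (2.01) and CL316243-treated mice (1.57). In fed mice its difference was 1.20 in the same direction and was not called. Of 4 gonad markers, Amh and Ddx4 were not well above background on any array, Fshr was on 17 and Star on all 36.

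The genes most like each member were the 3 non-members with the highest Pearson correlation over the 36 arrays, a description, since many genes share these group differences. Inhba was closest to 9530076L18 (r = 0.97), a transcript whose probe lies 3485 bases beyond that of Inhba on the same chromosome, chr13:16122178-16122237 (mm9). Its array-to-array deviations from the group means also followed those of Inhba (r = 0.78). That probe was well above background on all fed arrays and all CTRL CL316243 arrays, on 3 CTRL fasted arrays, on 1 AAKO CL316243 array and on 0 AAKO fasted arrays. The other genes nearest to Inhba were Sec14l2 (0.95) and Rmdn2 (0.95).

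Inhbb was closest to Cd93 (r = 0.96), a surface glycoprotein of endothelial and myeloid cells, with r = 0.85 for deviations from the group means, and then to BE944806 and Itprip (0.96 each). Cd93 itself rose with fasting by 1.15 in CTRL (adjusted p = 4.59e-05) and 2.29 in AAKO (adjusted p = 6.08e-11). Inhbc was closest to Mettl7b, Glyat and Pdzk1 (0.97 each), of which Glyat encodes a mitochondrial glycine acyltransferase of hepatocytes. Inhbe was closest to Hadh (0.95), a mitochondrial enzyme of fatty acid oxidation, to Cog4 and to Cpox, yet its deviations from the group means followed theirs less, with r = 0.29, 0.03 and 0.42; a second Cog4 probe rose with fasting in AAKO where the brightest fell (0.29 against -0.90). Fst had no close match, the highest being Pde4b (r = 0.77).

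Between members, the levels of Inhba, Inhbc and Inhbe correlated at 0.88 to 0.92 over the 36 arrays, and each correlated with Inhbb at -0.86 to -0.82. Once the group means were removed these values were 0.17 to 0.28 among the 3 genes and -0.23 to -0.01 with Inhbb. The shared pattern of the β subunit genes was thus one between groups, and arrays of the same group that were high for one subunit were not regularly high for another.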

How the data were processed

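RNA of 36 mouse liver samples was hybridised to 1-colour Agilent arrays, 1 array per sample, in 6 groups of 6 taken from the sample titles. Per the file headers, the deposited intensity values came from Agilent Feature Extraction 10.10.1.1, which subtracted background and detrended each array without scaling between arrays, and the authors' files also hold a mark per spot for signal well above background. Probe positions are on mm9. The authors also deposited a table of log2 values (column medians 6.88 to 7.01) whose normalization is not given in the sources used here. The submitters' processing notes name limma. Within each of the 6 groups its columns held the same sorted values, while column medians differed between groups. The spread within a group may thus be narrowed there, so calls gained in that table are weaker than those from the scanner files. Saturated spots numbered 0, and 2701 outlier spots (0.127% of spots) were left out.

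From the processed signal, log2 minus the 75th percentile of each array was taken, the spots of a probe were averaged, and a gene was represented by its brightest probe, kept if well above background on at least 5 of 6 arrays of a group. A limma (3.58.1; R 4.3.3) model of group means took wash batch as an additive term, was tested two-sided and checked on simulated data. Intervals are at 95%. Named pathway genes are, per list, up to 4 tested genes with the widest range of group means; nearest genes are the 3 most correlated per member whose group means span at least 1 log2 unit. The members, the lists and the tests were chosen with earlier results of these data known. Alternatives were normexp correction (offset 50), the deposited log2 table, quantile normalization, no batch term, each wash batch alone, slide or replicate number as a block, no filter, only the groups compared, every probe separately and each array left out. The number of arrays limits the precision, and the labels do not say that replicates are separate animals, so p-values measure the spread between these samples.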

Additional observations from a re-analysis of the deposited data

Results flagged for a closer look

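In 54 combinations of a member probe and a group, the highest or lowest of the 6 arrays was checked against the others by Dixon's test, and 4 had an array that stood apart; chance alone gives about 1 in 20. Inhbe in AAKO fasted replicate 6 read -1.10, while the other arrays of its group lay between -2.68 and -2.28. Inhba in CTRL fed replicate 4 read 0.98 beside -0.71 to -0.14, and Inhba in AAKO CL316243 replicate 5 read -1.04 beside -1.74 to -1.48. Fstl3 in CTRL CL316243 replicate 1 read -3.99 beside -3.76 to -3.64.

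The response to CL316243 differed between AAKO and CTRL liver for 3 members by the interaction term of the model, by -2.67 for Inhba, -1.27 for Inhbc and -1.64 for Inhbe.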

How the results depend on the processing

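Of 2184 values of single members under an alternative, 2090 kept their direction and their side of the threshold or moved by less than the spread between arrays. The count of called members in CTRL after CL316243 against fed, 1, was 2 after normexp correction and in the deposited log2 table, 0 within each wash batch, and from 1 to 2 when single arrays were left out (2 without CTRL fed replicate 4, by Inhba). Fasted against CL316243 in CTRL, 4, was 2 within wash batch 1. The CL316243 by genotype interaction, 3, was 1 within wash batch 2, where Inhba was kept. The fasted genotypes had 5 members without overlap within wash batch 2 in place of 3.

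Signs turned in 39 values, counting an untested term only if it also moved by at least the spread between arrays. Of these 39, 35 were called under neither setting and 4 belong to untested terms. After normexp correction these were Acvr2a fasted minus fed in AAKO (-0.0066), Fstl3 fasted minus CL316243 in AAKO (-0.044) and the Inhba genotype difference fasted against CL316243 (0.011). In the deposited log2 table they were Acvr2a between fed genotypes (0.0034) and Fstl3 fasted minus fed in AAKO (0.0030). Within wash batch 1 they were, between fed genotypes, Acvr2a (0.029), Fstl3 (-0.19) and Inhbc (-0.090); Fstl3 fasted minus fed in AAKO (0.094); Acvr2a (0.078) and Inhbc (-0.090) CL316243 minus fed in CTRL; and the Fst genotype difference fasted against fed (-0.10) and against CL316243 (-0.48). Within wash batch 2 they were Acvr2a fasted minus fed in CTRL (-0.0041) and AAKO (-0.095), Fst CL316243 minus fed in CTRL (0.32) and fasted minus CL316243 in CTRL (-0.11), Inhbe CL316243 minus fed in AAKO (0.28), the CL316243 by genotype interaction of Acvr2a (0.028) and Fst (-0.14), and the Acvr2a genotype difference fasted against CL316243 (-0.12). Leaving out single arrays turned Acvr2a fasted minus fed in AAKO (-0.035 to 0.039), Fst CL316243 minus fed in CTRL (-0.11 to 0.19) and AAKO (-0.28 to 0.31), the Fst CL316243 by genotype interaction (-0.27 to 0.32), Fstl3 fasted minus fed in AAKO (-0.21 to 0.0042) and Inhbc between fed genotypes (-0.062 to 0.15). The untested Fstl3 genotype difference fasted against CL316243 also crossed zero when single arrays were left out (-0.079 to 0.081). It moved by less than the spread and is not in the count. The cause of the turned signs was not tested.

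The labels do not say whether a replicate number marks a pair of arrays. In their deviations from the group means, same-numbered arrays correlated from 0.0046 to 0.359 between fed genotypes, with 3 of 6 pairs over 0.1. There 3 of 6 AAKO arrays correlated best with the CTRL array of their own number. Between fasted genotypes 2 of 6 did, with correlations from -0.215 to 0.226, and between CL316243-treated genotypes 1 of 6 did. With the number as a replicate block, Inhba fasted minus fed in CTRL stayed at -0.70 and was called (adjusted p = 0.0412), and no other call of a member changed. A wash batch alone has 2 to 4 arrays per group, so fewer genes pass there: 19 genes differed between fed genotypes in all and 1 and 0 within the batches.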
